A study of Mus musculus with 9 samples.

Results

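Tc22 cells and Tc0 cells given coenzyme A (CoA) were compared as a pair of CD8+ T cell states that both carried more Il22 transcript than untreated Tc0 cells. The comparison used 6 of the 9 libraries of the series: 3 of Tc22 cells without added CoA and 3 of Tc0 cells with CoA, each set from the same 3 C57BL/6 mice (numbers 715, 725 and 728 in the labels). The 3 remaining libraries, Tc0 cells without CoA from the same mice, entered the fit and are given as the common baseline. All cells were CD8+ T cells activated for 3 days. By common use of the names, Tc0 cells are CD8+ T cells activated without polarisation, and Tc22 cells are polarised towards interleukin-22. The sources used here do not give the cytokines, the CoA dose, the tissue of origin or the age and sex of the mice.

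Interleukin-22 is a cytokine of the type 17 family of T cell responses, which also include interleukin-17A and interleukin-17F and are directed by the receptors for interleukins 23 and 1 and by transcription factors such as the aryl hydrocarbon receptor (Ahr). CoA is the carrier of acyl groups in fatty acid and pyruvate metabolism and is made from pantothenate, vitamin B5, by pantothenate kinases and the bifunctional enzyme encoded by Coasy. Levels below are counts per 1000000 counts (CPM) with library sizes scaled by edgeR's TMM method, given in the order of mice 715, 725 and 728; where 2 sets of values carry no group name, those with CoA come first. Differences are log2 fold changes of Tc22 against Tc0 with CoA, so that a positive value is higher in Tc22, with standard errors (SE) and Benjamini-Hochberg adjusted p-values over all genes tested from edgeR's quasi-likelihood test with mouse as a block. A gene was called at an adjusted p under 0.05.

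The transcripts of these cells differed across many genes. Of 15348 genes tested, 4913 (32.0%) were called, 2456 (16.0%) higher and 2457 (16.0%) lower in Tc22, and 4891 of them had the same sign in 3 of 3 mice. That agreement of sign is not independent of the calls, which come from a fit of the same libraries. Among the called genes, 228 were more than 2 log2 units higher and 235 more than 2 log2 units lower. The 16.0% in each direction is the share to set beside the list counts below. Against the untreated Tc0 baseline, 565 genes (3.68%) were called in Tc22 cells, 380 (2.48%) higher and 185 (1.21%) lower, and 3763 (24.5%) in CoA-treated cells, 1915 (12.5%) higher and 1848 (12%) lower. These 2 comparisons share their controls and share libraries with the direct one, so their values are given side by side only. The call count rested on the pairing and on single libraries: 1017 genes higher and 1080 lower were called without the mouse block, 1148 and 1037 without the mouse 725 Tc22 library, 1244 and 1190 without the mouse 725 CoA library, 1274 and 1182 without the mouse 728 CoA library, and 1663 and 1588 without the mouse 715 Tc22 library.

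**Figure D1:**
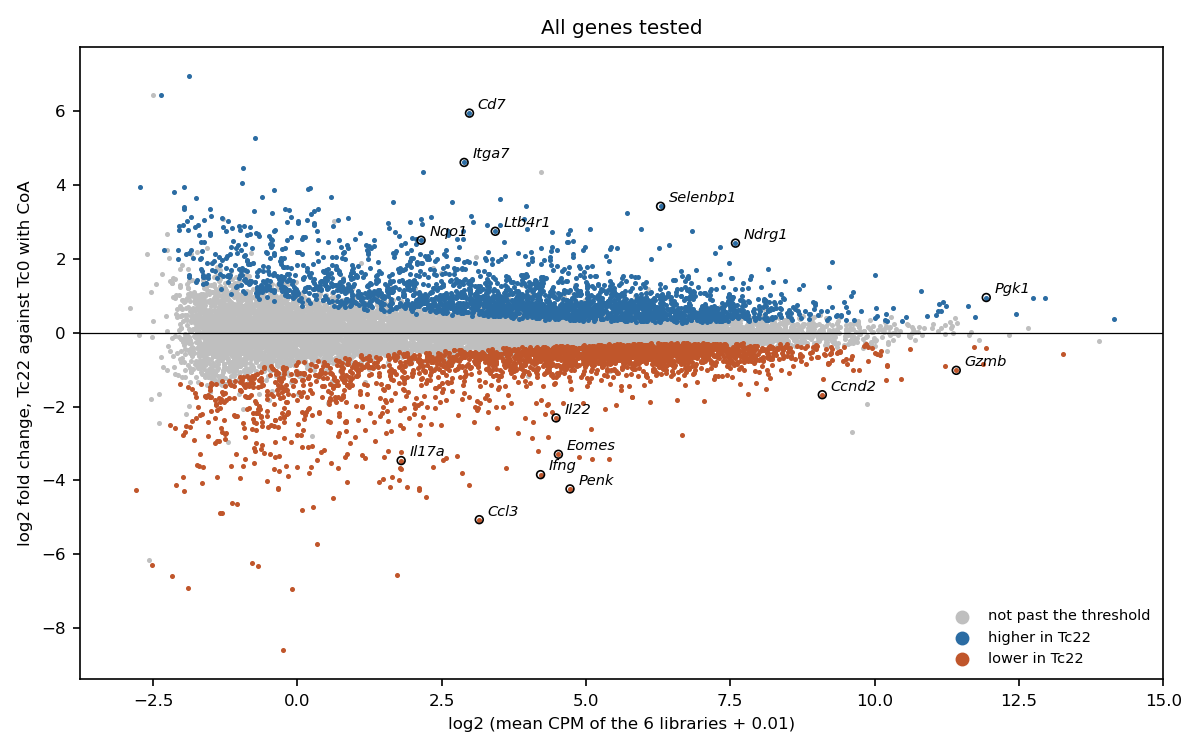
Log2 fold change of Tc22 against Tc0 with CoA (vertical axis) by mean level over the 6 libraries (horizontal axis, log2 of CPM + 0.01), 1 point a gene; blue and orange points are the 2456 higher and 2457 lower genes, grey points were not called. Circled genes are named in the text, from Cd7 at 5.94 to Ccl3 at -5.06.

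The libraries held 22642510 to 27905487 counts with CoA, 28631079 to 33739553 in Tc22 and 21841034 to 36254631 in Tc0. Of 13 measured CD8+ T cell markers 6 were higher in Tc22 and 1 lower. Their higher count was 3 without the mouse 725 CoA library or mouse 725 Tc22 library and 2 with the mouse term dropped. Their lower count was 0 without the mouse 728 CoA library or mouse 715 or 725 or 728 Tc22 library. Cd8a, which encodes a chain of the CD8 co-receptor, stood at 860.2, 647 and 767 CPM with CoA and at 698, 739 and 749 CPM in Tc22 (log2 fold change -0.05 ± 0.12 (SE), adjusted p = 0.77). Cd4, the co-receptor of helper T cells, was near the floor, at 0.531, 0.289 and 1.15 CPM and 0.714, 0.859 and 1.37 CPM. Of marker lists for other cells, the summed level of the 3 measured B cell genes was 136 to 209 CPM with CoA and 74.3 to 269.5 CPM in Tc22 (Cd79a, Ms4a1 and Pax5 did not pass the filter on low counts), that of 8 macrophage and monocyte genes 11.3 to 21.9 and 13.97 to 27.2 CPM, and that of 5 dendritic cell genes 19.2 to 26.4 and 18.9 to 24.7 CPM. The 3 measured granulocyte and mast cell genes summed to 23.5 to 45.7 and 25.7 to 28.4 CPM, the 5 gamma delta T cell genes to 95.8 to 126 and 131 to 162 CPM, and the 7 CD4 and regulatory T cell genes to 93.7 to 117 and 88.7 to 120.4 CPM. The 5 natural killer cell genes summed to 39.8 to 50.5 CPM with CoA and 5.61 to 10.1 CPM in Tc22, most of it from Eomes, which CD8+ T cells also express, while Ncr1 did not pass the filter on low counts. No erythroid marker passed that filter. In the order given here, 0, 2, 0, 0, 2, 1 and 1 members of these 7 lists were called higher in Tc22, and 1, 3, 1, 2, 1, 2 and 1 lower. Without any 1 library no such count exceeded 3. Although their sums overlapped, the granulocyte and mast cell genes had within-mouse median log2 ratios of -0.66, -1.125 and -1.38. The 2 lower ones were Cpa3 and Mcpt8, calls lost with the mouse term dropped (adjusted p = 0.0808 and 0.124). That of Mcpt8 was also lost without the mouse 725 or 728 CoA or Tc22 library. Ms4a2, not tested, had 2, 23 and 6 raw counts with CoA and 0, 1 and 1 in Tc22. In bulk RNA a lower level can mean fewer cells of a kind or less RNA in each, which cannot be told apart here, and the part of other cells in the results below was not tested.

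The type 17 cytokine genes were higher in CoA-treated Tc0 cells than in Tc22 cells. Of 7 measured genes 6 were lower in Tc22 and none was higher, with a median of -2.34 against 0.0109 over all genes tested. Il22 (GRCm38 chromosome 10, 118204942 to 118210047) stood at 0.755, 1.35 and 0.661 CPM in Tc0, at 30.1, 71.5 and 13.0 CPM with CoA and at 6.80, 7.47 and 4.92 CPM in Tc22. Both groups lay above every Tc0 library, and the lowest CoA-treated library, of mouse 728, still lay above all 3 Tc22 libraries (log2 fold change -2.31 ± 0.30 (SE), adjusted p = 0.000959). Such a separation of 3 libraries from 3, in either direction, was seen for 6424 genes (41.9%). Against Tc0 the Il22 value was 2.87 (adjusted p = 0.003) in Tc22 and 5.18 (adjusted p = 0.000162) with CoA.

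Il17a, the founding cytokine of the family, was also highest with CoA, with 4.55, 10.99 and 3.42 CPM with CoA, 0.204, 1.24 and 0.384 CPM in Tc22 and 0.0944, 0.280 and 0.0275 CPM in Tc0 (log2 fold change -3.46 ± 0.31 (SE), adjusted p = 0.000217). Il17f stood at 9.49, 10.96 and 2.44 CPM with CoA and 0.476, 1.33 and 1.22 CPM in Tc22 (log2 fold change -2.75 ± 0.50 (SE), adjusted p = 0.00361). For both genes every CoA-treated library exceeded every Tc22 library; the Il17f difference was -3.41 without the mouse 728 CoA library, -3.59 without the mouse 728 Tc22 library, -2.15 without the mouse 715 CoA library and -2.14 without the mouse 715 Tc22 library. Csf2, which encodes GM-CSF, was at 3.72, 9.22 and 3.06 CPM against 0.816, 0.770 and 0.703 CPM (log2 fold change -2.67 ± 0.33 (SE), adjusted p = 0.00079). Il10, an anti-inflammatory cytokine, was at 1.37, 2.42 and 1.598 CPM with CoA, 0.204, 0.356 and 0.480 CPM in Tc22 and 1.39, 2.05 and 1.16 CPM in Tc0 (log2 fold change -2.34 ± 0.33 (SE), adjusted p = 0.00137). The Tc22 libraries were the low ones for Il10: against Tc0 the value was -2.12 (adjusted p = 0.00852) in Tc22 and 0.23 (adjusted p = 0.599) with CoA.

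Il24, a relative of interleukin-10, was called at -2.07, but its Tc22 libraries read 47.4, 10.5 and 9.94 CPM beside 50.03, 61.6 and 61.0 CPM with CoA, and the call was lost without any 1 of 5 libraries (adjusted p from 0.0677 without the mouse 715 Tc22 library to 0.197 without the mouse 728 CoA library) and with the mouse term dropped; the value was -2.83 without the mouse 715 CoA library. The exception of the list was Il21, a cytokine of follicular helper and type 17 cells, at 1.97, 3.40 and 0.533 CPM with CoA and 4.49, 1.48 and 1.599 CPM in Tc22 (log2 fold change 0.45 ± 0.51 (SE), adjusted p = 0.537), with overlapping libraries. Il9 and Ccl20 did not pass the filter. The plot of cytokine transcripts shows these values by mouse.

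**Figure D2:**
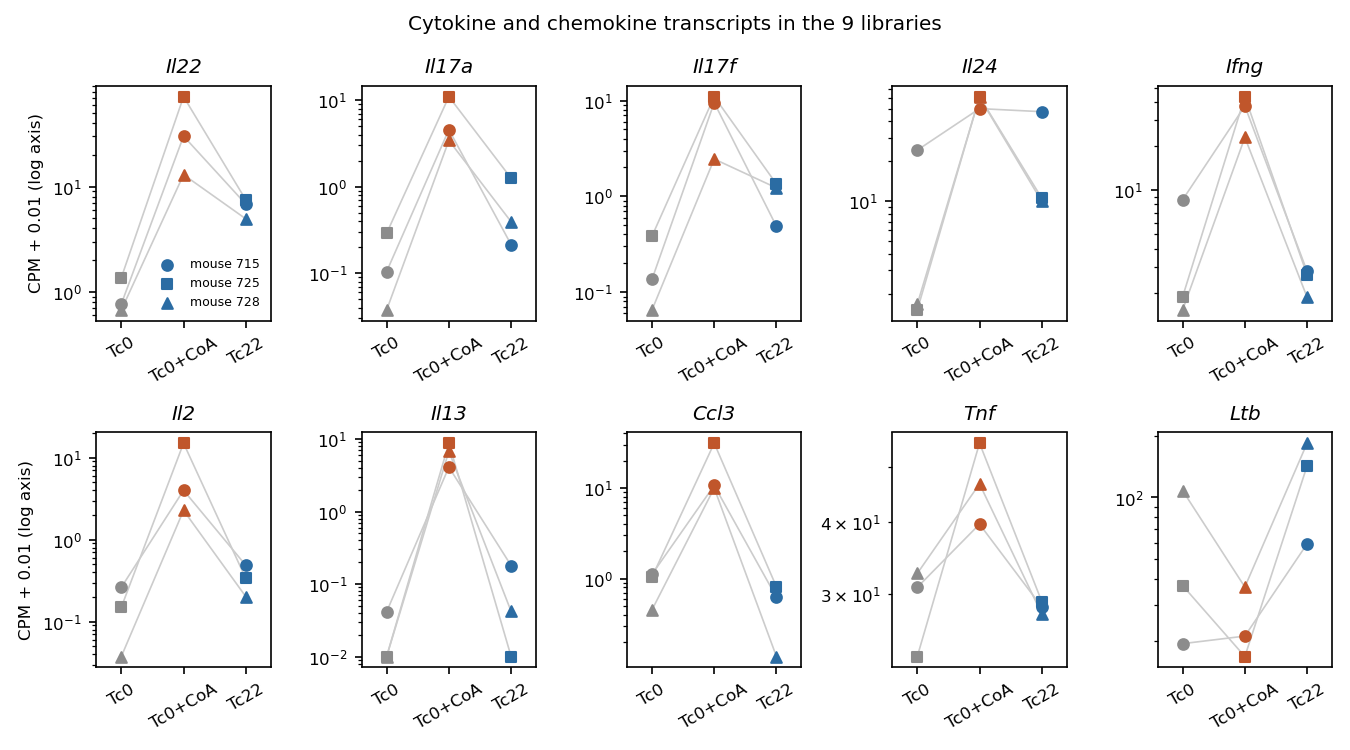
CPM + 0.01 on a log axis for 10 cytokine and chemokine genes in the 9 libraries; 1 point a library, symbols for mice 715, 725 and 728, grey lines joining libraries of a mouse. Within each mouse Il22 was highest with CoA, intermediate in Tc22 and lowest in Tc0, whereas Ifng, Il2 and Ccl3 stood apart in the CoA-treated libraries alone and Ltb was highest in Tc22.

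The receptors and transcription factors that direct type 17 cells were called in both directions. Of 19 measured, 5 were higher and 5 lower in Tc22, with a median of -0.01. The number called higher was 3 without the mouse 725 CoA library and 3 with the mouse term dropped. Lower members numbered 2 without the mouse 725 Tc22 library, 3 without the mouse 725 CoA library and 2 with the mouse term dropped. Il1r1, the interleukin-1 receptor, was above Tc0 in both groups (3.98 (adjusted p = 0.002) in Tc22 and 4.23 (adjusted p = 0.000916) with CoA) and not called between them (-0.24, adjusted p = 0.597). Il23r, the receptor for the cytokine that sustains type 17 cells, was lower in Tc22 (6.60, 4.95 and 1.73 CPM with CoA against 3.71, 1.78 and 0.863 CPM, log2 fold change -1.11 ± 0.23 (SE), adjusted p = 0.00677), with overlapping libraries across mice; that call was lost without the mouse 725 CoA library (adjusted p = 0.0576), the mouse 725 Tc22 library (adjusted p = 0.0598) or the block (adjusted p = 0.254).

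The largest rise in that list was Runx1, a runt-domain factor, at 3.34, 3.15 and 5.15 CPM with CoA and 10.2, 17.1 and 18.9 CPM in Tc22 (log2 fold change 1.96 ± 0.21 (SE), adjusted p = 0.000412); against Tc0 the value was 0.004 (adjusted p = 0.993) in Tc22 and -1.95 (adjusted p = 0.000967) with CoA. Bhlhe40, a factor needed for cytokine production in several T cell types, rose by 0.84 in Tc22. The largest fall was Ahr itself, the ligand-activated receptor that drives Il22 in many cells: 12.8, 15.9 and 11.7 CPM with CoA, 3.64, 3.82 and 3.77 CPM in Tc22 and 10.2, 9.28 and 8.54 CPM in Tc0 (log2 fold change -1.84 ± 0.16 (SE), adjusted p = 0.000224). The Tc22 libraries were below all others for Ahr.

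Of 11 measured target genes of the receptor 6 were higher in Tc22 and none lower, with a median of 1.33. Tiparp, which encodes a feedback inhibitor of the receptor, was at 58.3, 49.5 and 59.1 CPM with CoA and 147, 158 and 179 CPM in Tc22 (log2 fold change 1.53 ± 0.16 (SE), adjusted p = 0.000382). Nqo1, a quinone reductase, was at 1.02, 1.05 and 1.95 and 6.08, 7.91 and 8.41 CPM (log2 fold change 2.5 ± 0.23 (SE), adjusted p = 0.000253), and Lpxn at 69.2, 72.4 and 80.5 and 167, 224 and 226 CPM (log2 fold change 1.46 ± 0.10 (SE), adjusted p = 0.000126). For these 3 genes no CoA-treated library reached a Tc22 library. The classical targets Cyp1a1 (1.72) and Cyp1b1 (2.16), both detoxifying cytochromes, were called from low levels of 2.18, 2.02 and 3.01 and 3.16, 2.16 and 3.04 CPM in Tc22; the Cyp1a1 call was lost without the mouse 728 CoA library, the mouse 728 Tc22 library, the mouse 715 CoA library, the mouse 715 Tc22 library or the block, with adjusted p up to 0.176 over the alternatives. The Cyp1a1 value was 2.85 without the mouse 725 CoA library and 2.44 without the mouse 725 Tc22 library. The Cyp1b1 value was 2.98 without the mouse 725 CoA library and 2.81 without the mouse 725 Tc22 library. Against Tc0, 6 targets were higher and none lower in Tc22, and 2 were higher and 6 lower with CoA.

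Cytokine and chemokine genes outside the type 17 family also separated the groups. Of 21 measured genes 13 were lower in Tc22 and 1 was higher, with a median of -1.91. Ifng, the signature cytokine of type 1 immunity (GRCm38 chromosome 10, 118441046 to 118445892), stood at 37.5, 43.4 and 22.9 CPM with CoA, 2.79, 2.64 and 1.85 CPM in Tc22 and 8.59, 1.87 and 1.51 CPM in Tc0 (log2 fold change -3.84 ± 0.42 (SE), adjusted p = 0.000461). The Tc22 and Tc0 levels of Ifng overlapped, and the CoA-treated libraries were above both. Il2, the T cell growth factor, was at 3.99, 15.0 and 2.26 against 0.476, 0.326 and 0.192 CPM (log2 fold change -4.18 ± 0.49 (SE), adjusted p = 0.00063; -4.94 without the mouse 715 CoA library, -3.29 without the mouse 725 CoA library and -3.42 without the mouse 725 Tc22 library).

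Il13, a type 2 cytokine, was at 4.10, 8.79 and 6.79 CPM with CoA and at 0.170, 0 and 0.0320 CPM in Tc22 (adjusted p = 0.000257). The fitted difference of -6.55 rests on very few Tc22 counts and is no bound; it was -7.43 with DESeq2, -8.62 without the mouse 715 CoA library, -8.59 without the mouse 715 Tc22 library, -5.71 without the mouse 725 CoA library and -5.70 without the mouse 725 Tc22 library. Chemokines were lower too. Ccl3, which attracts monocytes and T cells, was at 10.6, 31.1 and 9.94 CPM with CoA and 0.612, 0.8001 and 0.128 CPM in Tc22 (log2 fold change -5.06 ± 0.37 (SE), adjusted p = 0.000126), Ccl4 differed by -3.45 and Xcl1, which attracts cross-presenting dendritic cells, by -3.67 on the log2 scale. Ccl3 and Ccl4 are close relatives, and reads may be shared between such genes in the authors' counting. Against Tc0, Xcl1 was -1.80 (adjusted p = 0.0111) in Tc22 and 1.87 (adjusted p = 0.00263) with CoA, so that the groups lay on opposite sides of the baseline.

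Ltb, which encodes lymphotoxin beta, was the 1 gene of that list that was higher in Tc22, at 21.1, 16.8 and 36.6 CPM with CoA and 59.4, 142 and 184 CPM in Tc22 (log2 fold change 2.28 ± 0.32 (SE), adjusted p = 0.00129). Tnf differed by -0.73 (39.7, 55.0 and 46.6 CPM with CoA, 28.4, 29.0 and 27.6 CPM in Tc22, adjusted p = 0.00845), a call that was lost without the mouse 725 CoA library (adjusted p = 0.0543). Lta, lymphotoxin alpha, was not called at -0.58, but was called lower with DESeq2 (adjusted p = 0.0213), with no filter (adjusted p = 0.00821), with the 6 compared libraries alone (adjusted p = 0.0431) and without the mouse 715 CoA library (adjusted p = 0.00863), the mouse 715 Tc0 library (adjusted p = 0.0434) or the mouse 725 Tc0 library (adjusted p = 0.0475). Against Tc0, 18 genes of the list were higher and none lower with CoA, and 3 were higher and 1 lower in Tc22.

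T cell receptor signalling induces a set of early response factors and their feedback genes. Of 33 measured, 17 were lower in Tc22 and 5 higher, with a median of -0.48. The members called lower numbered 11 without the mouse 725 CoA library and 11 with the mouse term dropped. The higher count was 2 with the mouse term dropped. Nr4a3, an orphan nuclear receptor induced by antigen signals, was at 59.4, 62.3 and 37.6 CPM with CoA, 8.63, 4.06 and 3.68 CPM in Tc22 and 25.9, 15.2 and 12.4 CPM in Tc0 (log2 fold change -3.36 ± 0.21 (SE), adjusted p = 9.23e-05). Nr4a1 differed by -2.42 and the zinc finger factors Egr3 and Egr2 by -2.51 and -2.03 on the log2 scale. For these 4 genes each CoA-treated library was above each Tc22 library.

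The members of that list that were higher in Tc22 were Fosl2, Dusp6, Ier3 and the NF-κB inhibitors Tnfaip3 and Nfkbia. Tnfaip3, the ubiquitin-editing protein A20, was at 66.0, 53.4 and 54.1 CPM with CoA and 112, 135 and 152 CPM in Tc22 (log2 fold change 1.19 ± 0.15 (SE), adjusted p = 0.000879), and Nfkbia, the inhibitor IκBα, rose by 0.91. Of 20 measured NF-κB subunits and feedback genes, 8 were higher and 3 lower. The subunit gene Relb rose by 1.19 and the inhibitor-of-apoptosis genes Birc3 and Birc2 by 0.996 and 1.12, while Rel was called at -0.61, a call lost without the mouse 725 CoA library (adjusted p = 0.112), the mouse 715 Tc22 library (adjusted p = 0.0703), the mouse 725 Tc22 library (adjusted p = 0.137) or the block (adjusted p = 0.0859). The number called higher was 5 without the mouse 728 CoA library or mouse 715 or 725 Tc22 library and 5 with the mouse term dropped. Lower members numbered 1 without the mouse 725 CoA library or mouse 715 or 725 Tc22 library and 1 with the mouse term dropped. The calls of Fosl2 and Ier3 were lost with the mouse term dropped (adjusted p = 0.0997 and 0.052), and that of Dusp6 without the mouse 725 CoA library (adjusted p = 0.14), the mouse 725 Tc22 library (adjusted p = 0.145) or the block (adjusted p = 0.063).

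Of the cytotoxic genes that were called, more were lower than higher in Tc22. Of 21 measured granzymes, perforin, killing ligands and related genes, 7 were lower and 2 higher in Tc22. The related genes include Serpinb9, Serpinb6b and Nkg7, given below. Over all genes tested, 16.0% were called in each direction. The 2 higher members were a smaller share of the list than that. The members called higher numbered 0 without the mouse 725 or 728 CoA library, 1 without the mouse 725 Tc22 library, 4 without the mouse 728 Tc0 library or mouse 715 CoA library and 0 with the mouse term dropped. Gzmb, the main granzyme of activated CD8+ T cells, was at 3262, 4064 and 3617 CPM with CoA and 1545, 2124 and 1748 CPM in Tc22 (log2 fold change -1.02 ± 0.12 (SE), adjusted p = 0.000733). Its inhibitor Serpinb9 was also lower, at 164, 305 and 155 CPM with CoA and 55.5, 61.5 and 50.2 CPM in Tc22 (log2 fold change -1.84 ± 0.15 (SE), adjusted p = 0.000196). The Serpinb9 libraries did not overlap. Also lower were Serpinb6b (-1.39), the granule protein gene Nkg7 (-1.01) and Fasl, the ligand of the death receptor Fas (-1.35). Perforin, Prf1, was not called (19.4, 21.7 and 21.9 CPM against 17.6, 20.5 and 19.3 CPM, log2 fold change -0.13 ± 0.13 (SE), adjusted p = 0.456). Gzmc was above Tc0 in both groups (3.64 (adjusted p = 0.000777) in Tc22 and 3.09 (adjusted p = 0.000822) with CoA) and not called between them (0.56, adjusted p = 0.151), although it was called at 0.91 without the mouse 715 Tc22 library (adjusted p = 0.0259) and at 0.57 with no filter (adjusted p = 0.0498). Granzyme genes are near-identical in places, so counts within the Gzmc to Gzmg cluster are uncertain.

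Among 26 transcription factors of type 1 and memory CD8+ T cells, 6 were lower and 5 higher in Tc22. The higher count was 3 without the mouse 725 Tc22 library, 8 without the mouse 728 Tc0 library, 10 without the mouse 715 CoA library and 2 with the mouse term dropped. The number called lower was 3 without the mouse 725 CoA library or mouse 725 Tc22 library and 3 with the mouse term dropped. Eomes, which directs cytotoxic and memory programmes, stood at 37.4, 48.0 and 39.4 CPM with CoA, 3.33, 5.96 and 3.74 CPM in Tc22 and 17.8, 28.4 and 17.7 CPM in Tc0 (log2 fold change -3.29 ± 0.15 (SE), adjusted p = 1.44e-05). The groups lay on either side of Tc0, with -2.29 (adjusted p = 0.000119) in Tc22 and 0.996 (adjusted p = 0.0023) with CoA. Tbx21, the type 1 factor T-bet, was at 8.12, 21.2 and 14.4 against 5.78, 11.6 and 8.92 CPM (log2 fold change -0.69 ± 0.16 (SE), adjusted p = 0.0113), with overlapping libraries and a call that was lost without the mouse 725 CoA library (adjusted p = 0.0746), without the mouse 725 Tc22 library (adjusted p = 0.0675) and with the mouse term dropped (adjusted p = 0.255). Foxp1, a factor of naive and quiescent T cells, differed by -1.12. On the other side, Nfil3 rose by 1.22 and Myb by 0.91, and Bcl6, a repressor tied to follicular and memory cells and listed with STAT targets, was at 0.266, 0.687 and 1.07 CPM with CoA and 1.56, 6.37 and 7.71 CPM in Tc22 (log2 fold change 2.96 ± 0.28 (SE), adjusted p = 0.000295). Against Tc0, Bcl6 was 0.24 (adjusted p = 0.572) in Tc22 and -2.72 (adjusted p = 0.000888) with CoA. Tcf7 and Id2, regulators of memory and effector fate, were not called (0.35 and 0.10), but Tcf7 was called at 0.64 without the mouse 715 CoA library (adjusted p = 0.0026).

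Genes for homing receptors, regulators of their signalling and tissue residency separated the groups. Of 24 measured, 11 were higher in Tc22 and 4 lower, beside 16.0% of all genes tested in each direction, with a median of 0.71. Against Tc0, 3 members were higher and 2 lower in Tc22, and 5 were higher and 9 lower with CoA. Ltb4r1, the leukotriene B4 receptor, was at 2.05, 2.24 and 4.44 CPM with CoA, 16.0, 18.6 and 21.2 CPM in Tc22 and 2.08, 2.05 and 3.25 CPM in Tc0 (log2 fold change 2.74 ± 0.20 (SE), adjusted p = 0.000126). Ccr2, the receptor for monocyte chemoattractants, was at 4.44, 8.82 and 5.73 and 14.7, 71.5 and 49.6 CPM (log2 fold change 2.66 ± 0.31 (SE), adjusted p = 0.000585), and Cxcr6, a receptor of tissue-resident cells, at 4.44, 6.44 and 4.08 and 8.36, 79.1 and 55.6 CPM (log2 fold change 2.78 ± 0.49 (SE), adjusted p = 0.00319). No library of either group overlapped the other for these receptors. The Cxcr6 value was 3.62 without the mouse 715 CoA library, and its call was lost without the 3 libraries of mouse 728 (adjusted p = 0.0591). Cxcr4 rose by 2.36, the lymph node egress receptor S1pr1 by 1.32 and Rgs1, a brake on chemokine signalling, by 1.47. The lower members were Ccr8 (1.78, 1.01 and 1.69 CPM with CoA, 0, 0.178 and 0.0320 CPM in Tc22), Cxcr3, Rgs2 and Rgs16. Ccr8 was called at -4.21, and at -3.49 without the mouse 715 Tc22 library and -6.42 without the mouse 725 Tc22 library. The call of Cxcr3 was lost without the mouse 715 or mouse 728 Tc22 library, or with the mouse term dropped (adjusted p = 0.167). The residency marker Cd69 was not called (0.29).

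Inhibitory receptors moved both ways, with 5 of 19 measured higher and 8 lower. Lower members numbered 4 without the mouse 725 or 728 CoA library or mouse 715 or 725 Tc22 library, 5 without the mouse 728 Tc22 library and 2 with the mouse term dropped. Lag3 was at 24.1, 18.8 and 33.6 CPM with CoA and 56.8, 52.5 and 76.6 CPM in Tc22 (log2 fold change 1.305 ± 0.19 (SE), adjusted p = 0.00144), Cd200r1 rose by 1.597 and Lilrb4a by 1.28. Pdcd1, which encodes PD-1, was lower at -0.94 (adjusted p = 0.0217) and Havcr2, TIM-3, at -1.36 (adjusted p = 0.00697); both calls were lost with the mouse term dropped, and that of Pdcd1 also without the mouse 725 CoA library or the mouse 725 or mouse 728 Tc22 library, with adjusted p up to 0.121 over the alternatives. Of 9 measured lectin receptors of natural killer type, 4 were higher and 3 lower, with a median of 0.36 and values from -1.54 to 3.88. The within-mouse medians of these receptors were -0.56, 0.62 and 0.67. Without the 3 libraries of mouse 728 their higher count was 2. The lower ones were the activating receptor gene Klrk1 (-1.05), Klrc1 (96.8, 74.9 and 46.4 CPM with CoA, 36.6, 21.2 and 17.4 CPM in Tc22, log2 fold change -1.54 ± 0.16 (SE), adjusted p = 0.000369) and Klrc2, whose sequence is close to that of Klrc1 and whose call was lost with the mouse term dropped (adjusted p = 0.118).

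The genes of the hypoxia response were higher in Tc22 almost throughout. The response is run by the hypoxia-inducible factors HIF-1 and HIF-2, which bind ACGTG-containing elements near genes for oxygen sensing, mitophagy and collagen hydroxylation and near most genes of glycolysis. Outside glycolysis, 22 of 24 measured members were higher and none lower, with a median of 0.89 and within-mouse medians of 0.74, 1.10 and 0.85. The 2 members that were not called were Epas1, which encodes HIF-2α (-0.33), and Rora (0.20); Rora was called at 0.56 without the mouse 715 CoA library. Every alternative kept at least 16 members higher and none lower. The promoters of 3 of these genes and of Pgk1, a glycolysis gene, follow from RefSeq (GRCm38.p6), because their levels are given next: each is the 250 bases before the annotated start on the gene's strand, 5′ to 3′, with the motif ACGTG (or CACGT, the same motif on the other strand) in capitals.
P4ha2, chr11:54100674-54100923, plus strand: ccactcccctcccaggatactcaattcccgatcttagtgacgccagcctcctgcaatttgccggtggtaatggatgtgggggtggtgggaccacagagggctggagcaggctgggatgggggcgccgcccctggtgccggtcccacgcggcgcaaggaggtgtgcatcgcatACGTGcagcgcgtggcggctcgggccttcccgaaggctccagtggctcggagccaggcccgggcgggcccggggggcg
Selenbp1, chr3:94932833-94933082, plus strand: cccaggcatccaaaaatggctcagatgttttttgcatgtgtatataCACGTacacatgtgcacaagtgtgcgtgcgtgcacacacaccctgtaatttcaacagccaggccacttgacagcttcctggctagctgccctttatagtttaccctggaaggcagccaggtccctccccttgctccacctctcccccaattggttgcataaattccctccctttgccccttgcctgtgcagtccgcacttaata
Bnip3, chr7:138909507-138909756, minus strand: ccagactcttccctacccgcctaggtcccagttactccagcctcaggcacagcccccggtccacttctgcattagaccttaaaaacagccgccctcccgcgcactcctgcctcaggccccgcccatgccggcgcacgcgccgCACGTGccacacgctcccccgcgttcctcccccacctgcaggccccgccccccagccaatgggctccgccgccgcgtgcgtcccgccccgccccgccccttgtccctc
Pgk1, chrX:106186850-106187099, plus strand: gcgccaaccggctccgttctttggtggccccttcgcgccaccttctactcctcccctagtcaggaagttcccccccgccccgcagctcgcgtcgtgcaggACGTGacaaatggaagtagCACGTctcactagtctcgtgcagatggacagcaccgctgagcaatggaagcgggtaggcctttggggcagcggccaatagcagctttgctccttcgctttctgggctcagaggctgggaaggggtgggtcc

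The motif lay 78 bases before the start of P4ha2, 204 bases before that of Selenbp1, 108 and 107 bases before that of Bnip3, where the palindrome CACGTG is read on both strands, and 150 and 131 bases before that of Pgk1. Over the same 250 bases, both strands searched and overlaps counted, the motif was found in 5444 of 32851 promoters of the RefSeq table (16.6%), in 2807 of 12839 promoters of genes tested (21.9%), in 16 of 25 promoters of the hypoxia list (64.0%), in 14 of 36 of the glycolysis list (38.9%) and in 2 of 22 of the ribosome biogenesis list (9.09%). These shares describe letters in a window and not binding. The hypoxia list was drawn up from genes of a response run through this motif, so its share is no independent result. Every printed promoter holds the motif, whereas by gene 15 of 19 of the hypoxia list and 11 of 23 of the glycolysis list have it. By gene, the motif was found in 2570 of 10107 genes tested (25.4%). Of the 24 measured members of the hypoxia list, only these 19 had a promoter in the RefSeq table.

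Selenbp1, a selenium-binding methanethiol oxidase, was at 17.8, 51.5 and 118 CPM in Tc0, 8.46, 3.69 and 37.8 CPM with CoA and 69.6, 151 and 199 CPM in Tc22 (log2 fold change 3.42 ± 0.48 (SE), adjusted p = 0.00129; 2.78 without the mouse 725 CoA library). P4ha2, a collagen prolyl hydroxylase, was at 6.53, 3.94 and 13.4 CPM with CoA and 21.7, 43.0 and 46.1 CPM in Tc22 (log2 fold change 2.25 ± 0.35 (SE), adjusted p = 0.00207). Bnip3, a mitophagy receptor, was at 191, 124 and 256 and 390.5, 577 and 559 CPM (log2 fold change 1.40 ± 0.26 (SE), adjusted p = 0.00386). In each of these genes the lowest Tc22 library exceeded the highest CoA-treated one. Ndrg1 rose by 2.42 (3.08 without the mouse 715 CoA library), the related mitophagy receptor gene Bnip3l by 1.53, the histone demethylase gene Kdm3a by 1.004, P4ha1 by 0.85 and the oxygen sensor genes Egln3 and Egln1 by 1.20 and 0.90; the Egln1 call was lost with the mouse term dropped (adjusted p = 0.0573). Hif1a itself differed by 0.58 (adjusted p = 0.00741). Against Tc0, 2 members were higher and none lower in Tc22, and none was higher and 14 were lower with CoA.

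Glycolysis genes followed, with 18 of 24 measured higher and 3 lower, a median of 0.68 and within-mouse medians of 0.58, 1.03 and 0.46. Against Tc0, 1 member was higher and none lower in Tc22, and 2 were higher and 9 lower with CoA. Pgk1, phosphoglycerate kinase, was at 2698, 2274 and 3033 CPM with CoA and 4858, 5241 and 5357 CPM in Tc22 (log2 fold change 0.95 ± 0.13 (SE), adjusted p = 0.00109), without overlap. Aldoc, an aldolase, was at 33.8, 8.61 and 53.9 and 140.3, 196 and 255 CPM (log2 fold change 2.76 ± 0.43 (SE), adjusted p = 0.00209; 2.15 without the mouse 725 CoA library). The glucose transporter gene Slc2a3 rose by 1.91, Aldoa by 1.14, Gpi1 by 1.11 and Gapdh by 0.79. The 3 lower genes were Ldhb (-0.89), the muscle enolase gene Eno3 (-0.79) and the lactate transporter gene Slc16a1 (-0.51), and the hexokinase gene Hk2 (-0.34) and the lactate dehydrogenase gene Ldha (0.25) were not called. The members called higher numbered 9 without the mouse 725 Tc22 library, 10 without the mouse 725 CoA library, 11 without the mouse 728 CoA library and 4 with the mouse term dropped. The lower count was 1 with the mouse term dropped. The calls of Aldoa, Gapdh, Gpi1, Ldhb and Slc16a1 were among those lost with the mouse term dropped. That of Gapdh was also lost without the mouse 725 CoA library (adjusted p = 0.0586), the mouse 728 CoA library (adjusted p = 0.0663) or the mouse 725 Tc22 library (adjusted p = 0.0744), and that of Slc16a1 without the mouse 728 CoA library (adjusted p = 0.0623) or the mouse 725 Tc22 library (adjusted p = 0.0504). Without the mouse 728 Tc0 library Hk2 (adjusted p = 0.0281) and Ldha (adjusted p = 0.0484) were called, Hk2 also with the 6 compared libraries alone (adjusted p = 0.0415).

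**Figure D3:**
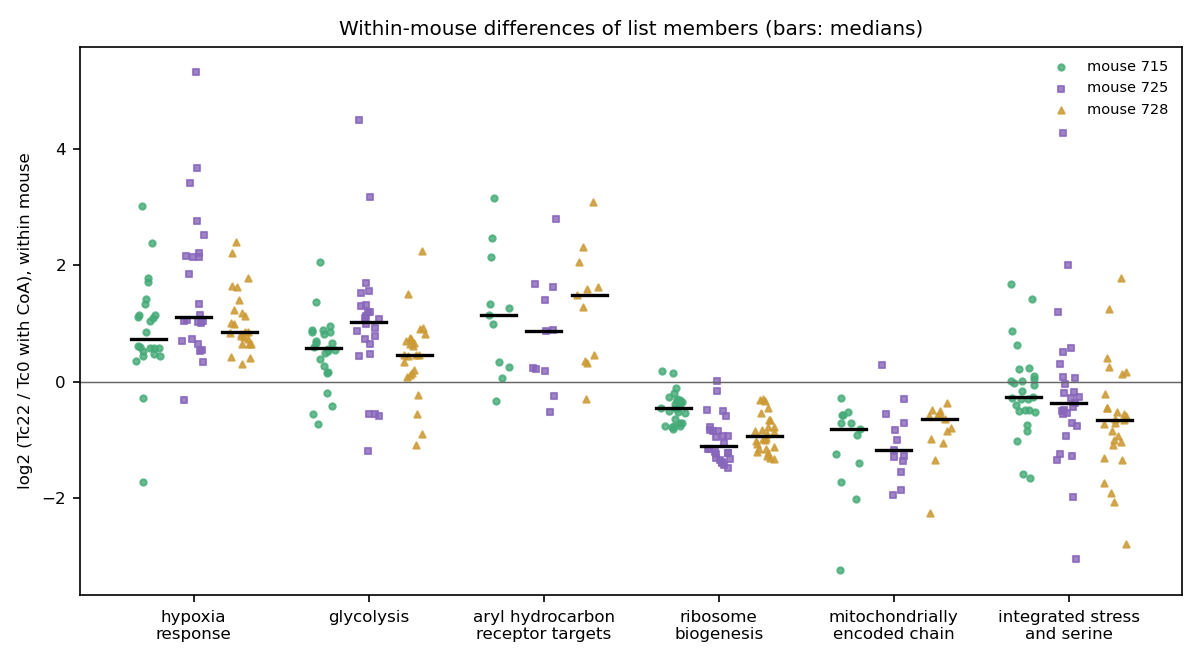
Log2 ratio of Tc22 to Tc0 with CoA within each mouse (vertical axis, CPM + 0.1) for members of 6 gene lists, 1 point a gene, with black bars for the medians of mice 715, 725 and 728. The hypoxia medians lay at 0.74, 1.10 and 0.85 and the ribosome biogenesis medians at -0.45, -1.11 and -0.93, on opposite sides of 0 in all 3 mice.

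Genes of ribosome biogenesis, the nucleolar assembly of new ribosomes, ran the other way. Of 26 measured, 24 were lower in Tc22 and none was higher, with a median of -0.84 and within-mouse medians of -0.45, -1.11 and -0.93. Polr1b, a subunit of RNA polymerase I, was at 80.5, 135 and 92.6 CPM with CoA, 47.4, 51.1 and 39.9 CPM in Tc22 and 49.3, 45.0 and 48.4 CPM in Tc0 (log2 fold change -1.14 ± 0.16 (SE), adjusted p = 0.00129). Nop56, a core protein of box C/D small nucleolar particles, was at 447, 609 and 449 and 263, 239 and 200.3 CPM (log2 fold change -1.10 ± 0.14 (SE), adjusted p = 0.000875). For both genes the groups did not overlap; against Tc0, Polr1b was -0.06 (adjusted p = 0.851) in Tc22 and 1.08 (adjusted p = 0.00309) with CoA, and Nop56 was -0.16 (adjusted p = 0.53) in Tc22 and 0.95 (adjusted p = 0.00305) with CoA. Utp20 differed by -1.16, Nolc1 by -1.15 and nucleolin, Ncl, by -0.87. Polr1c and Tcof1 were not called. Against Tc0, 23 members were higher and none lower with CoA, and none was called in Tc22.

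Mitochondrially encoded genes of the respiratory chain were lower in Tc22 as well, 12 of 13 with none higher and a median of -0.90. mt-Cytb, cytochrome b of complex III, was at 784, 922 and 642 CPM with CoA and 298, 359 and 309.7 CPM in Tc22 (log2 fold change -1.26 ± 0.13 (SE), adjusted p = 0.000369), without overlap. The complex I subunit genes mt-Nd3 and mt-Nd4l differed by -1.67 and -2.40 on the log2 scale. All mitochondrially encoded genes together, ribosomal RNA included, took 3.997%, 3.64% and 2.66% of counts with CoA and 3.33%, 2.01% and 2.298% in Tc22, which overlap across mice. The number called lower was 6 with the mouse term dropped. Against Tc0, none of the 13 was higher and 1 was lower in Tc22, and 7 were higher and none lower with CoA. Of 67 measured nuclear genes of the chain, 1 was higher and 11 were lower, with a median of -0.07. Of this list 17.9% were called, beside 32.0% of all genes tested, and 16.0% of all genes were called lower. Cytochrome c, Cycs, was among the lower ones (-0.88). The lower count of nuclear genes was 1 without the mouse 728 CoA library, 2 without the mouse 725 Tc22 library, 3 without the mouse 715 Tc22 library, 4 without the mouse 725 CoA library, 7 without the mouse 728 Tc22 library and 3 with the mouse term dropped. Copies of mitochondrial genes in the nuclear genome can share reads with them.

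**Figure D4:**
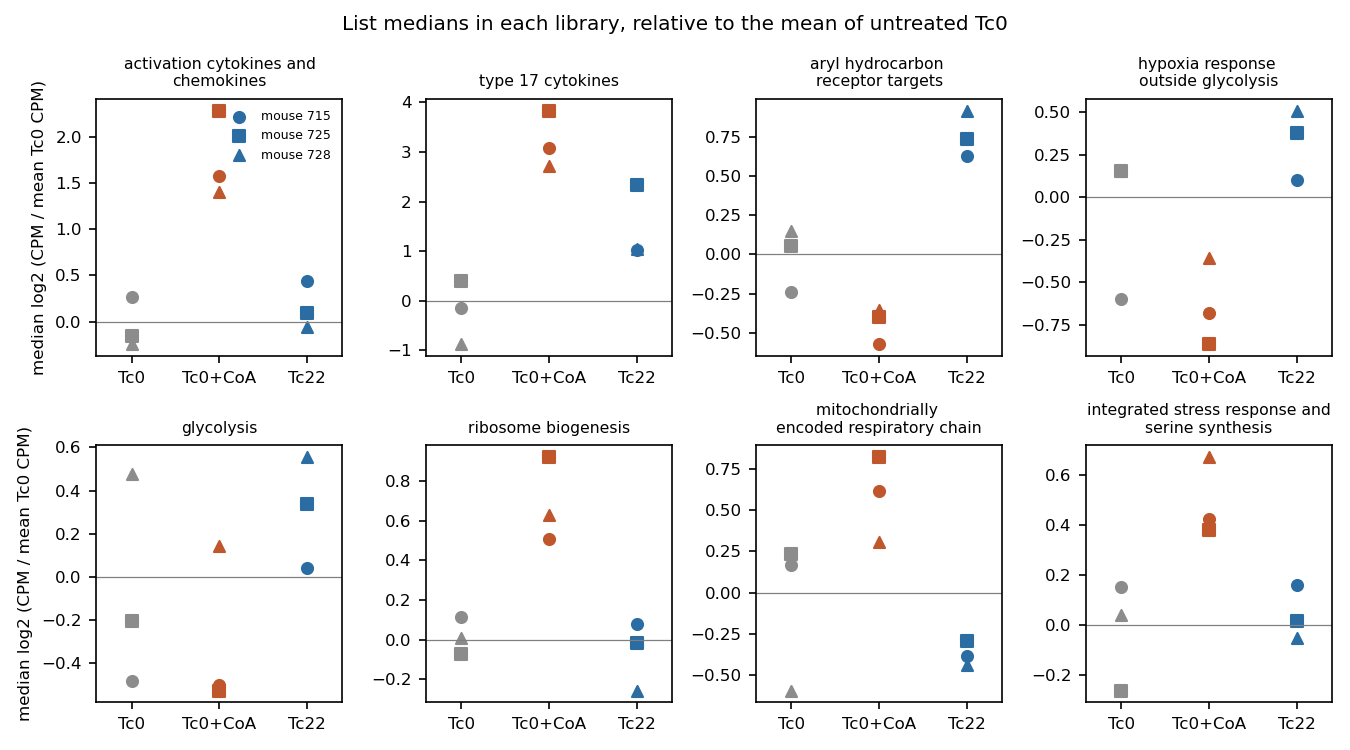
Median over list members of the log2 level in each library relative to the mean of the 3 Tc0 libraries (CPM + 0.1), for 8 gene lists; symbols are mice 715, 725 and 728. Ribosome biogenesis stood at 0.51, 0.92 and 0.63 with CoA and 0.08, -0.02 and -0.26 in Tc22, and the hypoxia list at -0.68, -0.86 and -0.36 with CoA and 0.10, 0.38 and 0.51 in Tc22.

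Genes of the integrated stress response, in which ATF4 switches on amino acid transport and synthesis, and of serine synthesis were lower in Tc22 in 14 of 27 measured genes and higher in 4, with a median of -0.35. Lower members numbered 9 without the mouse 725 or 728 CoA library or mouse 728 Tc22 library and 8 with the mouse term dropped. The members called higher numbered 2 without the mouse 725 or 728 CoA library or mouse 715 or 725 Tc22 library and 2 with the mouse term dropped. Cth, the enzyme that makes cysteine from cystathionine, was at 62.1, 63.3 and 44.7 CPM with CoA and 19.7, 7.62 and 6.36 CPM in Tc22 (log2 fold change -2.59 ± 0.36 (SE), adjusted p = 0.00127). The cystine transporter gene Slc7a11 was at 9.26, 9.19 and 7.41 and 3.03, 2.25 and 1.89 CPM (log2 fold change -1.87 ± 0.21 (SE), adjusted p = 0.00057), and Shmt1, of the folate cycle, differed by -1.13. The stress factor gene Ddit3, which encodes CHOP, had the other sign, at 7.44, 4.59 and 11.1 CPM with CoA and 20.1, 18.7 and 26.4 CPM in Tc22 (log2 fold change 1.57 ± 0.17 (SE), adjusted p = 0.000516). Atf4 differed by -0.43, a call lost without each of 5 single libraries (adjusted p up to 0.117 over the alternatives). Against Tc0, 14 members were higher and 2 lower with CoA and none was called in Tc22.

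Of 25 measured genes of CoA synthesis, turnover and transport, 2 were higher and 5 lower in Tc22, beside 16.0% of all genes tested in each direction. Coasy, which completes the pathway, was at 17.3, 15.4 and 24.2 CPM with CoA and 22.2, 20.6 and 22.2 CPM in Tc22 (log2 fold change 0.22 ± 0.15 (SE), adjusted p = 0.288), and the pantothenate kinase gene Pank1 at 5.73, 5.86 and 5.99 and 5.44, 5.57 and 5.50 CPM (log2 fold change -0.09 ± 0.16 (SE), adjusted p = 0.692). Slc5a6, which imports pantothenate and biotin, was lower in Tc22, at 7.97, 10.5 and 8.66 against 5.30, 4.50 and 4.16 CPM (log2 fold change -0.96 ± 0.18 (SE), adjusted p = 0.00463). The other lower genes were the ectoenzyme gene Enpp2 (-1.97), the CoA-cleaving Nudt19 (-0.59), Aasdhppt and Slc33a1, and the 2 higher ones were the acetyl-CoA synthetase genes Acss1 (1.39) and Acss2 (0.73). The lower count was 3 without the mouse 725 or 728 CoA library or mouse 715 or 725 Tc22 library and 2 with the mouse term dropped. The calls of Nudt19, Aasdhppt and Slc33a1 were lost with the mouse term dropped (adjusted p = 0.0542, 0.23 and 0.104). Those of Aasdhppt and Slc33a1 were also lost without the mouse 725 CoA library (adjusted p = 0.137 and 0.0851), the mouse 728 CoA library (adjusted p = 0.182 and 0.101), the mouse 715 Tc22 library (adjusted p = 0.086 and 0.0798) or the mouse 725 Tc22 library (adjusted p = 0.164 and 0.101).

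Of the genes of fatty acid synthesis, 9 of 20 measured were higher in Tc22 and none lower. Against Tc0, 1 was higher and none lower in Tc22, and 1 was higher and 5 lower with CoA. Me1, malic enzyme, was at 0.342, 1.23 and 1.95 CPM with CoA and 3.88, 8.001 and 5.28 CPM in Tc22 (log2 fold change 2.37 ± 0.34 (SE), adjusted p = 0.0014; 2.96 without the mouse 728 CoA library). The phosphatidate phosphatase gene Lpin1 and the triglyceride synthesis gene Dgat1 rose by 1.19 and 1.13, whereas the synthase Fasn (-0.09) and the carboxylase Acaca (-0.06) were not called. The number called higher was 5 without the mouse 725 or 728 CoA library or mouse 725 Tc22 library. For oxidation of fatty acids, 6 of 26 were higher and 2 lower, with Acadl at 1.18 and the carnitine transferase gene Cpt1a at 0.77. Their higher count was 2 without the mouse 725 CoA library or mouse 725 Tc22 library, 3 without the mouse 715 Tc22 library and 2 with the mouse term dropped. Their lower count was 1 without the mouse 725 or 728 CoA library or mouse 715 or 725 Tc22 library and 1 with the mouse term dropped. Of 26 cholesterol synthesis genes 7 were higher and 1 lower. For cholesterol the higher count was 3 without the mouse 725 or 728 CoA library or mouse 715 or 725 Tc22 library and 3 with the mouse term dropped. In each of these lists 8 of 26 were called, beside 32.0% of all genes tested. In pyruvate entry and the TCA cycle 6 of 34 were higher and 8 lower, beside 16.0% of all genes tested in each direction. The lower ones included the pyruvate dehydrogenase subunit genes Dlat (-0.78) and Pdhx (-0.53), and Pcx, pyruvate carboxylase, was higher (1.77). The Pdhx call was lost without the mouse 728 CoA library (adjusted p = 0.0618), the mouse 725 Tc22 library (adjusted p = 0.062) or the 3 libraries of mouse 725 (adjusted p = 0.105). Their lower count was 2 without the mouse 728 CoA library or mouse 725 Tc22 library, 3 without the mouse 725 CoA library, 4 without the mouse 715 Tc22 library and 3 with the mouse term dropped. Their higher count was 3 without the mouse 725 Tc22 library.

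**Figure D5:**
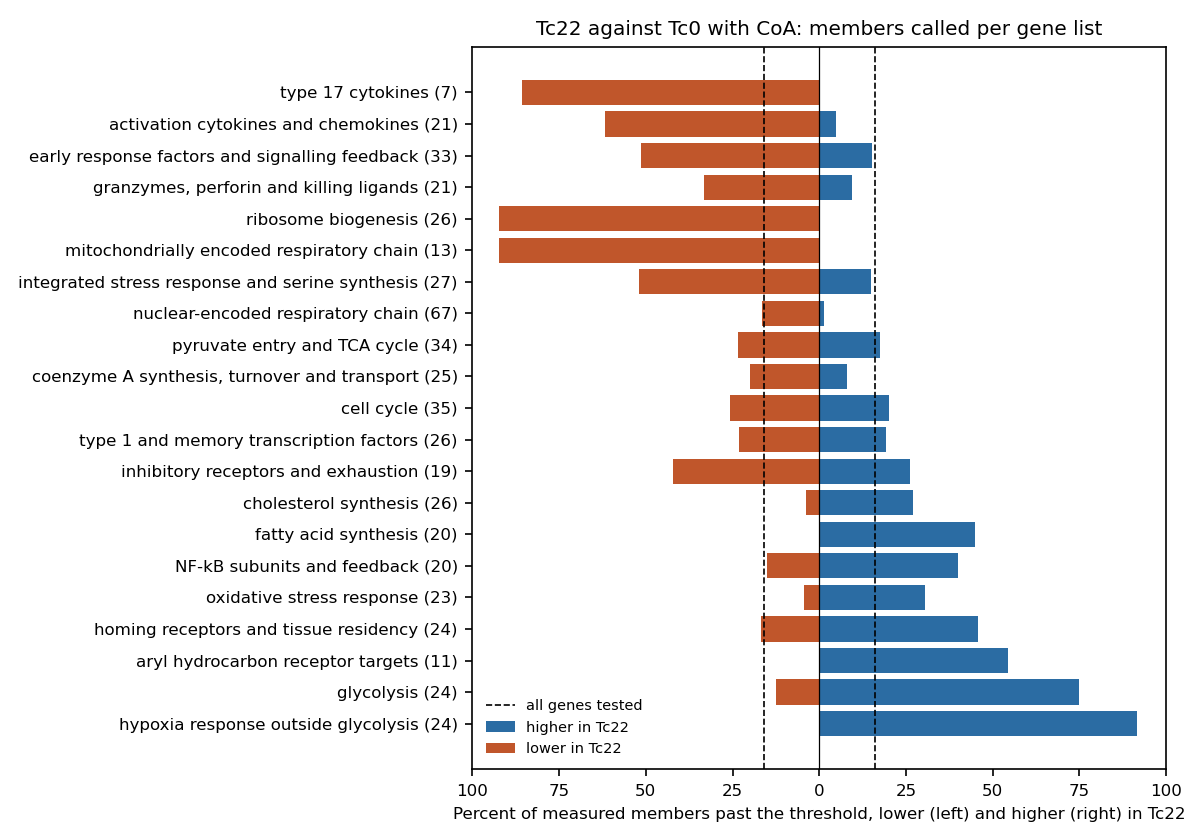
Percent of the measured members of 21 gene lists (number measured in brackets) that were called lower (left, orange) or higher (right, blue) in Tc22 against Tc0 with CoA; dashed lines are the shares over all genes tested, 16.0% on each side. Hypoxia and glycolysis lie far to the right of the line, and type 17 cytokines, ribosome biogenesis and mitochondrially encoded genes far to the left.

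Metal-handling genes also separated the groups. The metallothionein gene Mt1, whose product binds zinc and copper, was at 15.8, 27.2 and 46.8 CPM with CoA and 86.6, 108 and 134 CPM in Tc22 (log2 fold change 2.01 ± 0.19 (SE), adjusted p = 0.00026), and the neighbouring Mt2 at 3.68, 7.88 and 14.3 and 32.0, 40.3 and 56.1 CPM (log2 fold change 2.46 ± 0.20 (SE), adjusted p = 0.000196). Every Tc22 library was above every CoA-treated library for both, and their near-identical sequences make the split between them uncertain. The ferritin heavy chain gene Fth1, which stores iron, was at 159, 139.6 and 167 and 361, 355 and 389 CPM (log2 fold change 1.25 ± 0.11 (SE), adjusted p = 0.000203), and Tfrc, the transferrin receptor that imports iron, went the other way, at 1531, 2082 and 1395 and 759, 734 and 555 CPM (log2 fold change -1.29 ± 0.14 (SE), adjusted p = 0.000547). Of the 16 measured members, 5 were higher and 4 lower. Lower members numbered 2 without the mouse 725 or 728 CoA library or mouse 715 or 725 or 728 Tc22 library and 2 with the mouse term dropped. The members called higher numbered 3 with the mouse term dropped.

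Of 16 interferon-inducible GTPases, which defend against intracellular microbes, 6 were lower and 3 higher in Tc22. The higher count was 1 without the mouse 715 Tc22 library. Without the 3 libraries of mouse 728 it was 0. The number called lower was 3 with the mouse term dropped. Iigp1 was at 8.12, 86.03 and 54.1 CPM in Tc0, 11.3, 16.1 and 16.9 CPM with CoA and 0.578, 1.24 and 1.06 CPM in Tc22 (log2 fold change -4.11 ± 0.52 (SE), adjusted p = 0.000916). Tgtp1, Tgtp2 and Irgm1 differed by -0.97, -1.28 and -0.83, calls that were lost with the mouse term dropped; Tgtp1 and Tgtp2 are near-identical, so their split is uncertain. Against Tc0, 10 of the list were lower in Tc22 and 9 with CoA, and none was higher in either. Of the wider interferon response, 5 of 25 were higher and 5 lower, beside 16.0% of all genes tested in each direction. Higher members numbered 1 without the mouse 725 Tc22 library, 2 without the mouse 725 or 728 CoA library, 8 without the mouse 715 CoA library and 0 with the mouse term dropped. The members called lower numbered 3 without the mouse 715 or 725 or 728 CoA library or mouse 725 Tc22 library and 2 with the mouse term dropped. The MHC class II list had 4 of 9 higher and 2 lower, with a median of 0.75 and within-mouse medians of 0.34, 0.69 and 0.79. Against that median, Cd74, the invariant chain, was among the lower ones. It was at 25.7, 27.7 and 21.0 CPM with CoA and 10.5, 16.8 and 14.5 CPM in Tc22 (log2 fold change -0.84 ± 0.21 (SE), adjusted p = 0.0135). The Cd74 call was lost without the mouse 725 CoA library (adjusted p = 0.0654) or the mouse 715 Tc22 library (adjusted p = 0.0768). The higher count of the MHC class II list was 2 without the mouse 725 or 728 CoA library or mouse 715 or 725 Tc22 library and 2 with the mouse term dropped. Its lower count was 1 without the mouse 725 CoA library or mouse 715 Tc22 library.

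Cell cycle genes were called in both directions, 7 of 35 measured higher and 9 lower, beside 16.0% of all genes tested in each direction. Ccnd2, a cyclin of the G1 phase, was at 710.2, 1132 and 663 CPM with CoA and 311, 233 and 226 CPM in Tc22 (log2 fold change -1.68 ± 0.18 (SE), adjusted p = 0.000452), and the inhibitor Cdkn1b, p27, at 66.5, 32.9 and 70.6 and 156, 175 and 215 CPM (log2 fold change 1.69 ± 0.26 (SE), adjusted p = 0.00185). The replication factor Pcna and the mitotic kinase gene Plk1 were not called (-0.22 and -0.005), although Pcna was without the mouse 728 Tc0 library (adjusted p = 0.0414). The higher count was 1 without the mouse 725 CoA library or mouse 725 Tc22 library, 3 without the mouse 728 CoA library and 2 with the mouse term dropped. The number called lower was 5 with the mouse term dropped. Of 17 STAT3 and STAT5 feedback and target genes 5 were higher and 2 lower, the latter including Bcl2l1, a survival gene (-1.43). For that list the higher count was 3 without the mouse 728 CoA library or mouse 725 or 728 Tc22 library and 3 with the mouse term dropped. Its lower count was 4 without the mouse 715 CoA library. Of 23 oxidative stress genes 7 were higher and 1 lower, or 34.8% called beside 32.0% of all genes tested. Of 23 cytokine receptors 5 were higher and 6 lower. Their higher count was 3 without the mouse 728 CoA library, 8 without the mouse 715 CoA library and 3 with the mouse term dropped. Their lower count was 2 without the mouse 715 CoA library or mouse 715 Tc22 library, 3 without the mouse 728 CoA library or mouse 725 or 728 Tc22 library and 3 with the mouse term dropped. Of 13 costimulators of the TNF receptor family 5 were higher and 1 lower. The higher count of costimulators was 0 without the mouse 728 CoA library or mouse 725 Tc22 library, 1 without the mouse 725 CoA library or mouse 715 Tc22 library, 2 without the mouse 715 CoA library or mouse 728 Tc22 library and 0 with the mouse term dropped.

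By the naming rule, the largest rises in Tc22 at a mean of at least 5 CPM were led by Cd7, a surface receptor of T and NK cells (GRCm38 chromosome 11, 121036747 to 121039418), at 0.190, 0.145 and 0.355 CPM with CoA, 1.496, 17.9 and 27.2 CPM in Tc22 and 0.472, 6.53 and 13.2 CPM in Tc0 (log2 fold change 5.94 ± 0.52 (SE), adjusted p = 0.000203; 5.26 with DESeq2 and 6.57 without the mouse 715 CoA library). The fitted Cd7 difference rests on very few counts with CoA and is no bound. Its within-mouse log2 ratios were 2.46, 6.20 and 5.91 in mice 715, 725 and 728. Against Tc0, Cd7 was 1.304 (adjusted p = 0.0751) in Tc22 and -4.64 (adjusted p = 0.00125) with CoA. The laminin-binding integrin gene Itga7 followed at 4.61, with 0.228, 0.398 and 1.15 and 1.598, 19.5 and 21.5 CPM. Its value too rests on low counts with CoA. The Itga7 call was lost with the mouse term dropped (adjusted p = 0.0539), and its value was 4.002 with DESeq2 and 3.98 without the mouse 725 CoA library. The remaining rises were Smtnl2, Fam183b, Tspan9, Selenbp1, the glycogen phosphorylase gene Pygl, the protease inhibitor gene Serpinb1a, the urea transporter gene Slc14a1, Cyp2s1, Apbb1 and the complement gene C3, from 3.62 down to 2.91. Without the mouse 725 CoA library Smtnl2 was at 2.89 and Pygl at 2.64. Smtnl2 was at 4.32 without the mouse 728 CoA library, and Serpinb1a at 3.78 without the mouse 715 CoA library.

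The largest falls beside Ccl3, Iigp1, Ifng, Ccl4 and Nr4a3 were led by Penk, the precursor of the enkephalin opioid peptides, at 49.1, 69.6 and 30.9 CPM with CoA, 4.45, 2.96 and 1.25 CPM in Tc22 and 2.20, 1.17 and 0.385 CPM in Tc0 (log2 fold change -4.23 ± 0.30 (SE), adjusted p = 0.000126). Lmna, which encodes the A-type lamins of the nuclear envelope, was at 42.0, 65.1 and 80.2 and 8.77, 4.39 and 4.70 CPM (log2 fold change -3.41 ± 0.37 (SE), adjusted p = 0.000472). Neither gene overlapped between the groups. Inhba, a subunit of activin A, differed by -3.64 (-2.82 without the mouse 725 CoA library, -2.93 without the mouse 725 Tc22 library, -4.27 without the mouse 715 CoA library and -4.31 without the mouse 715 Tc22 library), the adenylate kinase gene Ak1 by -3.39, and Ankrd33b, Lad1 and Ttc39c by -3.80, -3.67 and -3.43 on the log2 scale. Of these 7 genes, none was called in Tc22 against Tc0 and all were called higher with CoA.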

How the data were processed

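RNA from CD8+ T cells was made into stranded, ribosomal RNA-depleted libraries and sequenced as paired reads, per the labels' protocols. STAR 2.5.2, RSEM 1.3.0 and the build GRCm38 (mm10) appear in the submitters' processing notes, without roles or order. The deposited table holds whole-number counts per gene. The sources used here do not say how the authors rounded or filtered them. The 9 single-sample tables equal its columns. Symbols for 53650 of 53679 gene IDs came from the reference table (the 29 without one hold 0.00477% of counts and stayed in library sizes), and gene positions from GENCODE M21 (GRCm38).

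Counts were tested with edgeR 4.0.16 (R 4.3.3): filterByExpr by group, TMM scaling and the quasi-likelihood F test over all 9 libraries with group and mouse as terms, leaving 4 residual degrees of freedom, with Benjamini-Hochberg adjustment over 15348 genes at 0.05. The series' design text says that the populations were matched by mouse. Deviations from the group means correlated at 0.24, 0.07 and 0.39 between the Tc22 and CoA-treated libraries of mice 715, 725 and 728. Between such libraries of different mice they correlated at -0.321 to 0.122. The highest of these joined the mouse 725 CoA library to the mouse 715 Tc22 library, above the value within mouse 725. The mice are the replicates, and each mouse gave 1 library a group. Within-mouse ratios used CPM + 0.1. The script was tested on simulated counts. Alternatives were DESeq2 1.42.0, RLE scaling, library size alone, no filter on low counts, no mouse block, the 6 compared libraries alone, each library left out and, chosen after seeing the data, each mouse left out. Named genes were the 12 largest rises and falls at a mean of at least 5 CPM with the same sign in 3 mice, up to 4 called members a list by smallest p, and 20 set genes, some of which are not reported here; other list members, picked with their values in view, are named to show the range of their list. The comparison and the gene lists were chosen with earlier results of these data known. Lists are described by counts and medians, with no set test.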

Additional observations from a re-analysis of the deposited data

How the results depend on the processing

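Scaling, the test and the filter on low counts changed the number of called genes by less than 1.5 times: DESeq2 gave 2337 higher and 2365 lower, RLE scaling 2424 and 2519, library size alone 2398 and 2543, no filter 2769 and 2506, and the 6 compared libraries alone 2786 and 2692. The pairing mattered more: with no replicate block 1017 genes were higher and 1080 lower. Leaving out 1 library, or all 3 libraries of 1 mouse, gave 980 to 2935 higher and 868 to 2978 lower genes. Of 227 genes followed across these settings, 227 kept their call and sign with RLE scaling and with library size alone, 223 with DESeq2, 223 with no filter, 223 with the 6 libraries alone and 176 with no replicate block, where 51 lost the call. Without mouse 728 the calls of Acss1, Cxcr6, Cyp1b1, Dusp6, Egln1, Havcr2 and Tnf were lost, among others, and without mouse 725 those of Slc5a6 and Nudt19. List counts of 0 to 3 members were 0 to 4 without 1 library. For the 9 uncalled genes that changed sign, the lowest and highest values without 1 library or 1 mouse were -0.168 and 0.085 for Cd8a, -1.234 and 0.273 for Epas1, -0.268 and 0.126 for Fasn, -0.562 and 0.281 for Il1r1, -0.049 and 1.365 for Il21, -0.069 and 0.101 for Plk1, -0.227 and 0.005 for Polr1c, -0.008 and 0.555 for Rora, and -0.155 and 0.227 for Tcof1. With no filter Plk1 was at 0.009 and Tcof1 at 0.005. The cause was not tested. With 3 mice and 4 residual degrees of freedom, small differences in genes of few counts were not detectable.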

Other observations

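Other families were chosen after the results were seen. Over all genes tested, 16.0% were called in each direction and 32.0% in all. Of the proteasome genes below 31.9% were called, all lower, and of the histone genes 29.0%, all higher. These shares lie near the 32.0% for both directions together and above the 16.0% for 1 direction. Of 81 measured mitochondrial ribosomal protein genes, which encode the ribosome that translates mitochondrial messages, 33 were lower in Tc22 than in Tc0 with CoA and 1 was higher, with a median log2 fold change of -0.28. The lower ones included Mrpl20 (-1.08) and Mrps2 (-0.73). Of 24 mitochondrial import translocase genes, 14 were lower and 1 higher, among them Timm9 (-0.99) and Tomm5 (-0.84). Of 37 aminoacyl-tRNA synthetase genes, which charge tRNAs with amino acids, 17 were lower and 2 higher, with Rars at -0.84 and Hars at -0.66. Of 13 subunit genes of RNA polymerases I and III, 8 were lower and none higher, and of 47 proteasome subunit genes 15 were lower and none higher. The lower count of mitochondrial ribosomal protein genes was 11 without the mouse 728 CoA library, 13 without the mouse 725 CoA library, 14 without the mouse 725 Tc22 library, 20 without the mouse 715 or 728 Tc22 library and 17 with the mouse term dropped. That of import genes was 7 without the mouse 728 CoA library, 8 without the mouse 725 CoA library or mouse 725 Tc22 library and 9 with the mouse term dropped. That of synthetase genes was 8 without the mouse 728 CoA library or mouse 725 Tc22 library, 9 without the mouse 725 CoA library, 10 without the mouse 715 or 728 Tc22 library and 9 with the mouse term dropped. That of polymerase genes was 5 without the mouse 725 or 728 CoA library or mouse 715 or 725 Tc22 library. That of proteasome genes was 9 without the mouse 725 or 728 CoA library or mouse 715 or 725 Tc22 library and 9 with the mouse term dropped.

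Of 12 host genes of small nucleolar RNAs, 7 were lower in Tc22, led by Snhg3 (-1.18). Their lower count was 3 without the mouse 725 or 728 CoA library or mouse 725 Tc22 library and 2 with the mouse term dropped. Of 62 replication-dependent histone genes 18 were higher and none lower. Their higher count was 3 without the mouse 725 Tc22 library, 4 without the mouse 728 CoA library or mouse 715 Tc22 library, 6 without the mouse 725 CoA library, 47 without the mouse 728 Tc0 library, 48 without the mouse 728 Tc22 library and 2 with the mouse term dropped. Histone genes took 0.162%, 0.178% and 0.366% of counts with CoA and 0.252%, 0.408% and 0.493% in Tc22, in the order of mice 715, 725 and 728. Of 81 cytosolic ribosomal protein genes 6 were higher and 1 lower, fewer than the 32.0% of all genes. That higher count was 0 without the mouse 725 or 728 CoA library or mouse 715 or 725 Tc22 library, 1 without the mouse 725 Tc0 library, 2 without the mouse 715 CoA library, 3 without the mouse 715 Tc0 library, 10 without the mouse 728 Tc22 library, 20 without the mouse 728 Tc0 library and 0 with the mouse term dropped.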
